A study of Homo sapiens with 15 samples.

Results

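The nuclear-encoded subunits of the mitochondrial respiratory chain and ATP synthase were followed by RNA-seq in human senescent cells carrying an shRNA against THBD, the gene for thrombomodulin. Members were chosen by symbol alone: NDUF genes of complex I, SDH genes of complex II, UQCR genes of complex III, COX genes of complex IV and ATP5 genes of complex V that are listed in both deposited count tables, without pseudogenes and antisense genes. The rule gave 87 genes of the 59428 in the IMR90 table and the 59412 in the Huh7 table, of which 36 belong to complex I, 4 to complex II, 9 to complex III, 18 to complex IV (with NDUFA4 placed there) and 20 to complex V. ATP5MJ and ATP5MK are listed under older symbols in the Huh7 table, and 1 antisense-type row, UQCRFS1-DT, was left out.

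The study set senescent cells with an shRNA meant to lower thrombomodulin against non-targeting controls. IMR90 cells, a human lung fibroblast line, were made senescent by HRAS G12V and carried shTHBD (3 libraries titled shTHBD21 to shTHBD23, called set 2 here from the first digit, and 3 titled shTHBD11 to shTHBD13, called set 1) or a non-targeting hairpin (3 control libraries). Huh7 cells, a line from a human hepatocyte-derived carcinoma, were made senescent by palbociclib, an inhibitor of cyclin D-dependent kinases, and carried shTHBD (3 libraries) or the non-targeting control (3 libraries). All 15 libraries are therefore from senescent cells, no proliferating cells are among them, and the cell line, the senescence inducer and the count table change together. What these digits stand for, and which hairpin each set carries, is not stated in the labels, and nothing says whether the 3 libraries of a group came from separate cultures, so p-values measure the spread between these libraries only.

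Complexes I to IV pass electrons from NADH and succinate to oxygen and pump protons across the inner mitochondrial membrane (complex II passes electrons without pumping), and complex V uses the proton gradient to make ATP. A small number of core subunits of complexes I, III, IV and V come from mitochondrial DNA. All other subunits come from the nucleus, and the genes described here are those that match the symbol rule. NDUFAB1 of complex I, for instance, lies outside it. Senescent fibroblasts are known for a larger mitochondrial mass with less efficient respiration, and liver cells for a high respiratory capacity.

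THBD, the targeted gene, checks the labels. It had 10.5, 11.5 and 11.4 CPM (counts scaled to the same total in every library) in set 2, 39.4, 36.6 and 37.3 CPM in set 1 and 16.5, 18.8 and 19.99 CPM in the IMR90 control, so it was lower in every set 2 library and higher in every set 1 library than in any control library (log2 fold change -0.81, SE 0.09, adjusted p = 1.5e-12 in set 2; log2 fold change 1.09, SE 0.076, adjusted p = 1.2e-20 in set 1). The second result goes against the shTHBD label, and the group is therefore called the set 1-labelled libraries. In Huh7 THBD had 0 counts in each shTHBD library and 0, 0 and 6 counts in the controls, too few to check the label there. Fold changes here and below come from the fit with TMM-scaled library sizes, while CPM values use the whole count of each library. Libraries held between 18256773 and 21509229 counted reads in IMR90 and between 19328182 and 25236178 in Huh7. Fibroblast markers (10 genes) were all detected in IMR90 and summed to 10188 to 10278 CPM in set 2, 2421 to 2502 CPM in the set 1-labelled libraries and 4124 to 4150 CPM in control. Hepatocyte markers (12 genes) summed to 7159 to 7349 CPM in Huh7 shTHBD and 9681 to 9979 CPM in Huh7 control, with none at 0. One set 2 library, replicate 3, has a description that names Huh7, while its cell line label and its fibroblast marker sum place it with IMR90. In Huh7, shTHBD replicate 3 stood apart: its counts differed from those of the other shTHBD libraries by 9.99 and 12.5 times the sampling noise (chi-square per degree of freedom), against 4.31 between the other pair and 3.57 to 5.26 among controls.

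The 87 members took 0.726% to 0.759% of the counted reads in set 2, 0.569% to 0.583% in the set 1-labelled libraries and 0.597% to 0.605% in IMR90 control. The 3 ranges do not overlap. The mean sum in set 2 was 1.23 times that of control, and 1.16 times with TMM-scaled library sizes. The set 1-labelled libraries were at 0.963 times control, but at 1.00 times with TMM-scaled library sizes, where the 2 groups overlap. In Huh7 the members took 0.487% to 0.551% in shTHBD and 0.540% to 0.584% in control, and these ranges overlap (ratio of means 0.932, and 0.914 without overlap under TMM scaling). Since RNA came from bulk cultures, fewer expressing cells and less RNA per cell cannot be told apart. By complex, complex I genes summed to 1976, 1987 and 2089 CPM in set 2, against 1474, 1499 and 1498 CPM in the set 1-labelled libraries and 1659, 1609 and 1625 CPM in control. Complex V genes summed to 2745, 2789.9 and 2866 CPM in set 2, against 2164, 2190.2 and 2205 CPM in the set 1-labelled libraries and 2253, 2246 and 2244 CPM in control. All 5 complexes had a higher sum in every set 2 library than in any other IMR90 library. In Huh7, complex III genes summed to 582, 623 and 526 CPM in shTHBD, against 670.5, 685 and 716 CPM in control, and complex V genes summed to 1975, 2016 and 1847 CPM in shTHBD, against 1899, 1978 and 2052 CPM in control. The Huh7 groups were separate for complexes I and III and overlapped for II, IV and V.

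**Figure D1:**
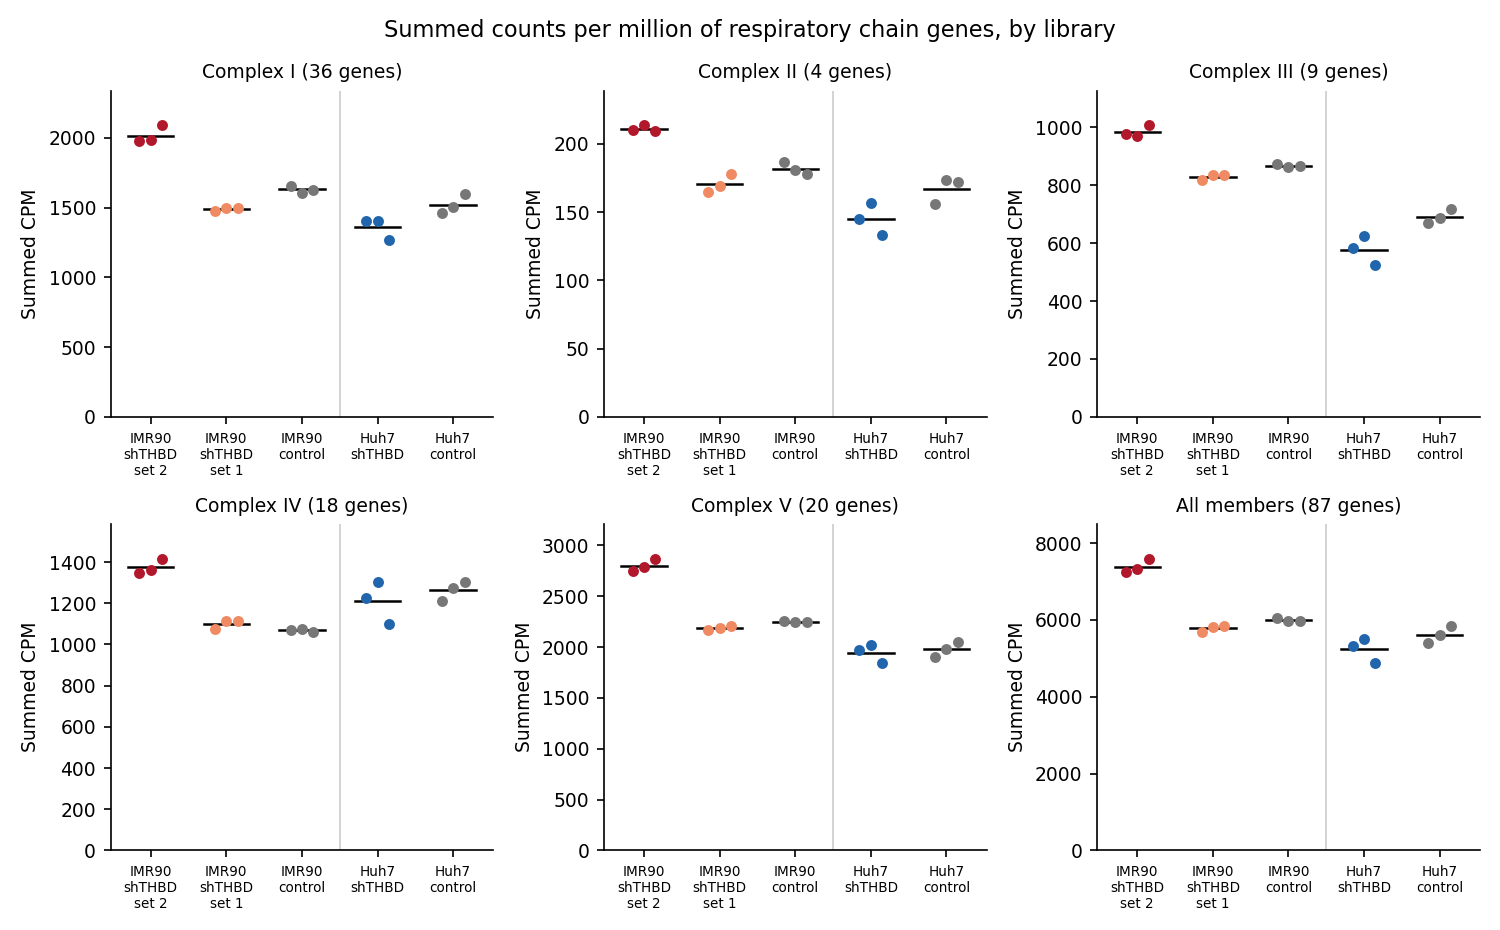
Summed CPM (linear axis from 0) of the genes of each complex and of all 87 members in each library, with the mean of 3 as a line. Set 2 libraries lie above all other IMR90 libraries in each panel. Huh7 shTHBD libraries lie below Huh7 control libraries for complexes I and III, and the 2 groups overlap in the other panels.

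Levels of different genes were compared per length, as RPKM (CPM per kilobase of exon). The length takes in all annotated exons of a gene, from 421 to 19359 bases over members, so the order of genes also depends on the annotation. ATP5F1B, the catalytic beta subunit of ATP synthase, had 341 ± 8.57 RPKM in set 2, 321 ± 3.74 in the set 1-labelled libraries, 323 ± 4.89 in IMR90 control, 318 ± 7.31 in Huh7 shTHBD and 315 ± 5.43 in Huh7 control (SD, n = 3 each). NDUFS5, an accessory subunit of complex I on the intermembrane side, had 535 ± 18.1 RPKM in set 2 and 314 ± 8.44 in IMR90 control, against 150 ± 7.16 in Huh7 shTHBD and 121 ± 9.23 in Huh7 control. In set 2 NDUFS5 was first in the order of RPKM and ATP5F1B second, while in IMR90 control ATP5F1B was first and NDUFS5 second, with mean ± SD ranges that overlap. COX8A, a small subunit of complex IV, was next in both groups, at 166 ± 10.6 RPKM in set 2 and 136 ± 2.61 RPKM in control. In Huh7 ATP5F1B led both groups. NDUFB7, a membrane-arm subunit of complex I, had 112 ± 13.2 RPKM in shTHBD, next after NDUFS5, and 141 ± 22.3 RPKM in control, just before NDUFS5, where their mean ± SD ranges overlap. The 2 tables were scaled separately, so levels in the 2 lines are set side by side without a test. Of the 87 members, 70 reached 10 CPM in every group and 9 stayed under 1 CPM in every group.

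In set 2 the respiratory chain genes were mostly higher than in the IMR90 control. Of 81 members tested, 54 rose and 9 fell (edgeR quasi-likelihood test, adjusted p under 0.05), which is 66.7% and 11.1%, while over all 15411 genes tested the shares called were 33.2% higher and 34.1% lower. The median log2 fold change was 0.27 over members and 0.01 over all genes. Of the 10 fibroblast markers, 7 rose and 3 fell in the same comparison, and their part in the members' result was not tested. The rises were modest: none reached 2-fold, and the largest was 0.73 on the log2 scale. Without set 2 replicate 3, 49 members were higher and 10 lower, with a median of 0.22. Set 2 and the set 1-labelled libraries are set against the same 3 control libraries. In complex I 24 of 36 tested genes were higher and 5 lower, in complex II 1 and 1 of 4, in complex III 5 and 2 of 9, in complex IV 10 and 1 of 14, and in complex V 14 and 0 of 18.

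**Figure D2:**
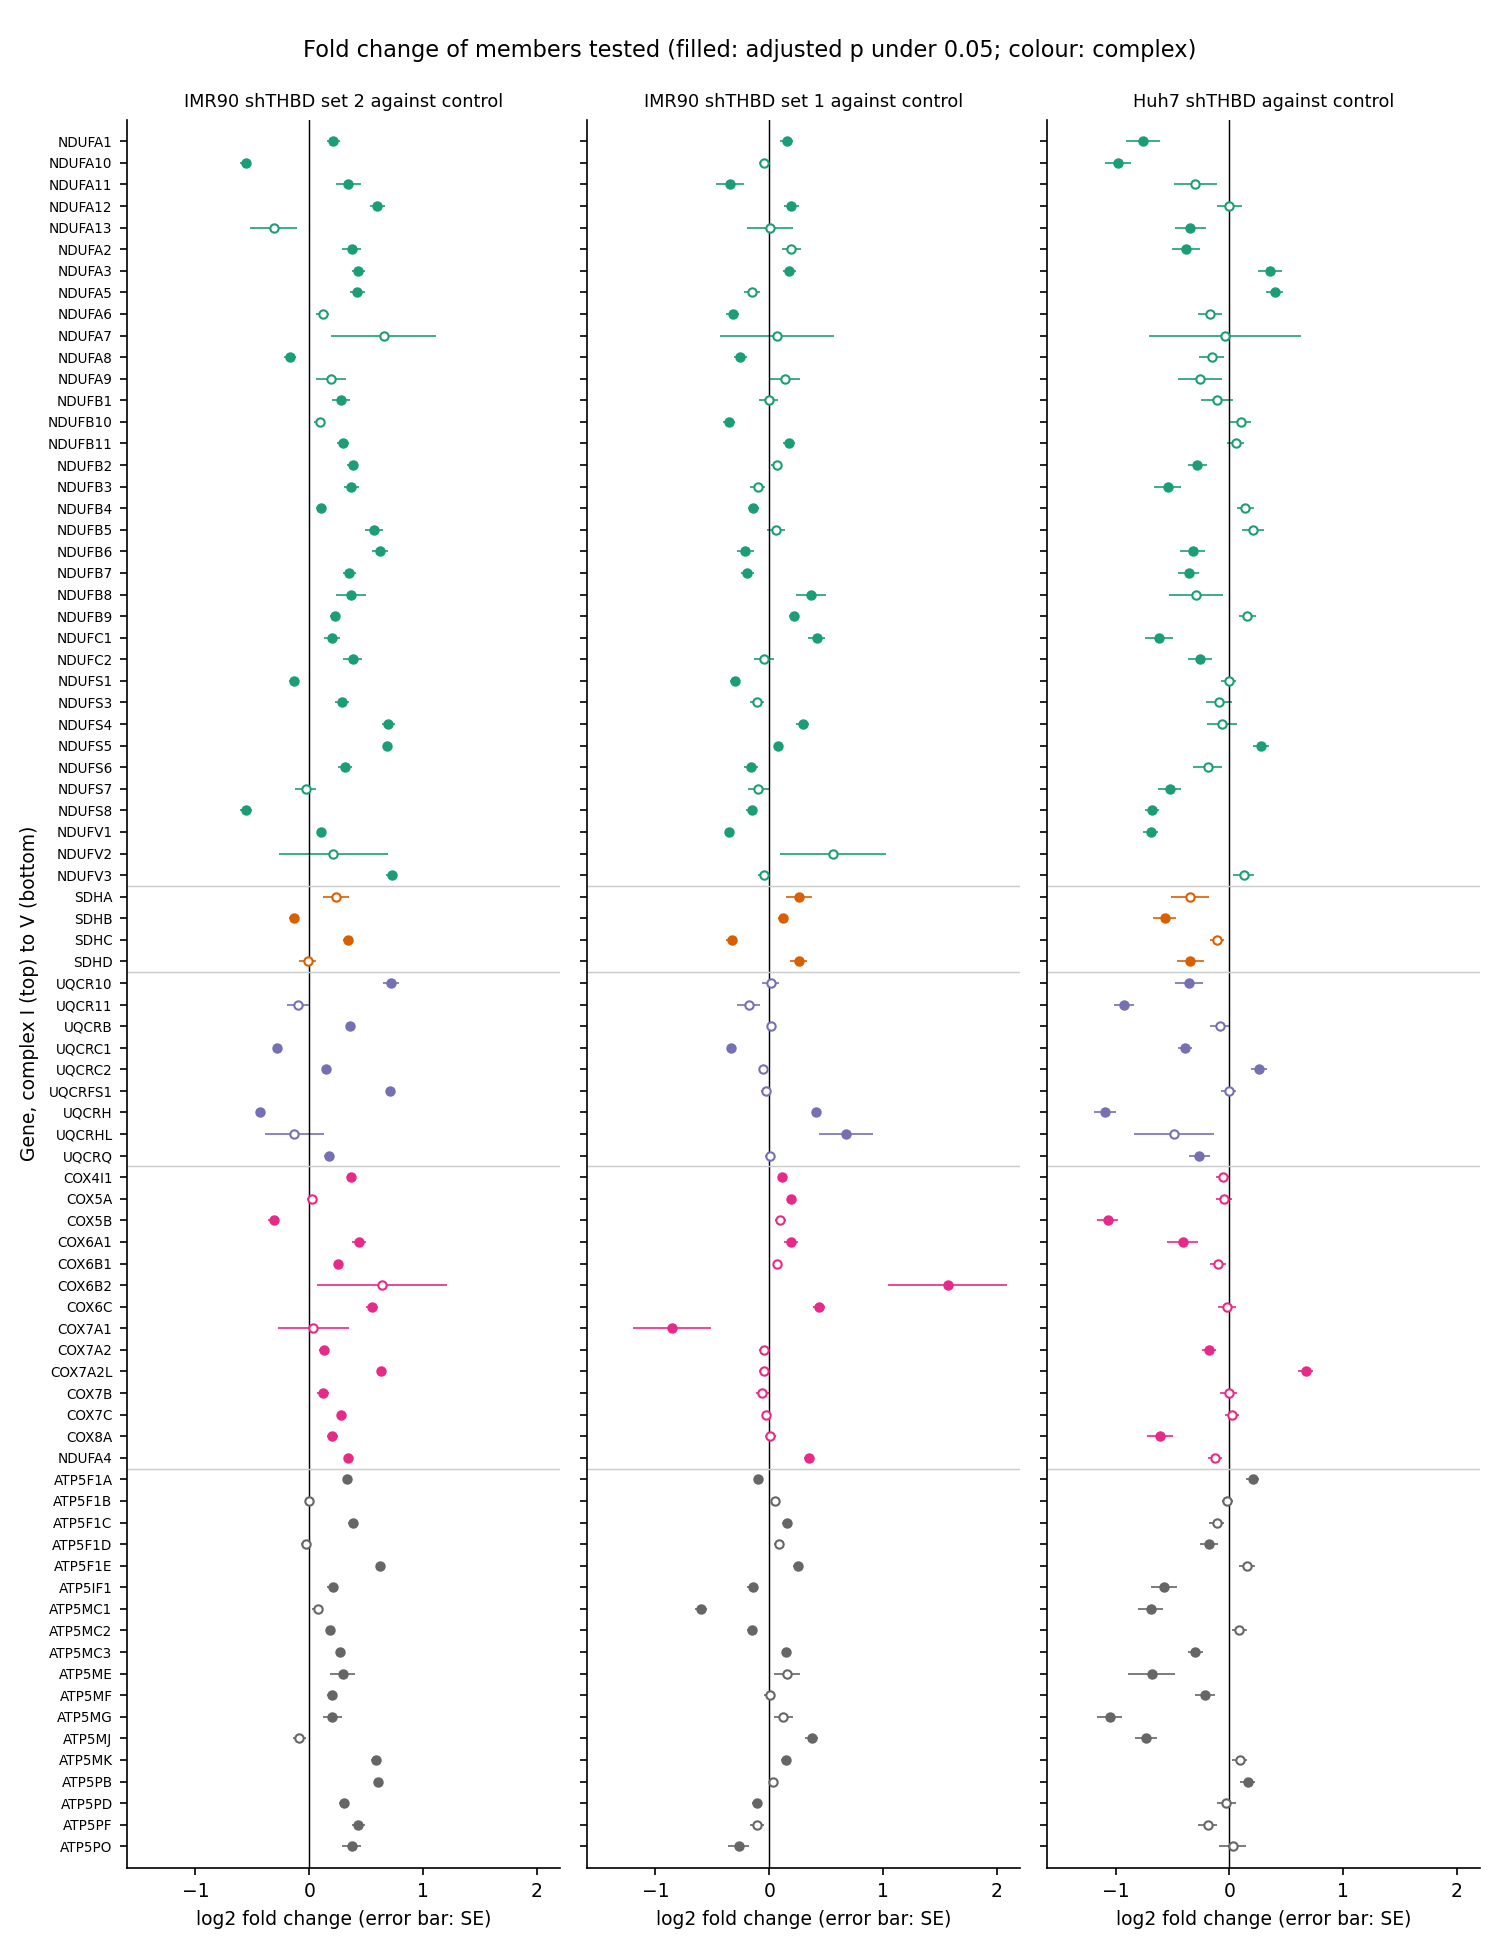
Log2 fold change (x axis, error bars SE) of the members drawn (y axis, ordered from complex I at the top to complex V at the bottom) in set 2, in the set 1-labelled libraries and in Huh7 shTHBD, each against its control (3 libraries a group). Filled points have an adjusted p under 0.05; most lie right of 0 in set 2, they lie on both sides of 0 in the set 1-labelled libraries, and most lie left of 0 in Huh7.

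Among complex I genes, the largest rise in set 2 was in NDUFV3, an accessory subunit of the NADH-oxidising module. NDUFV3 had 78.7, 79.7 and 78.5 CPM in set 2, against 46.04, 44.9 and 44.4 CPM in control (log2 fold change 0.73, SE 0.049, adjusted p = 8.3e-22). Every set 2 library was above every control library. NDUFS4, an accessory subunit of the same module, had 62.9, 69.4 and 66.3 CPM in set 2, against 39.8, 39.98 and 36.2 CPM in control (log2 fold change 0.70, SE 0.056, adjusted p = 2.8e-18), again without overlap. NDUFS5 had 283, 294 and 302 CPM in set 2 and 172, 176 and 167 CPM in control (log2 fold change 0.69, SE 0.03, adjusted p = 6.0e-32). NDUFB6, an accessory subunit of the membrane arm, rose too, with 42.8, 41.9 and 46.99 CPM in set 2 and 27.9, 24.5 and 28.03 CPM in control (log2 fold change 0.62, adjusted p = 1.8e-12).

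The core subunits of complex I, among them those that carry the flavin and the iron-sulfur clusters, did not move together in set 2. NDUFS8, an iron-sulfur subunit, had 53.5, 48.9 and 56.9 CPM in set 2, against 70.98, 73.6 and 76.6 CPM in control (log2 fold change -0.56, SE 0.051, adjusted p = 6.1e-16). It fell, and all set 2 libraries were below all control libraries. NDUFS1 also fell (log2 fold change -0.14, SE 0.039, adjusted p = 0.00187), a call lost with upper-quartile or plain library-size scaling (adjusted p = 0.121 and 0.243). NDUFS3 rose (log2 fold change 0.29, SE 0.059, adjusted p = 1.9e-05), NDUFV1 rose by 0.10 on the log2 scale (adjusted p = 0.0128, over 0.05 without set 2 replicate 3 or control replicate 1 or 3, at 0.094, 0.0788 and 0.0597), and NDUFS7 was not called (adjusted p = 0.786), with 51.5% of its exonic bases under exons of other genes in the IMR90 table. Among accessory subunits the largest fall was in NDUFA10, a matrix-side subunit with a nucleoside kinase fold. It had 54.6, 56.1 and 54.1 CPM in set 2, against 76.6, 76.97 and 75.8 CPM in control (log2 fold change -0.56, SE 0.046, adjusted p = 1.0e-17). NDUFA8 also fell (log2 fold change -0.17, adjusted p = 0.00577), a call lost with upper-quartile or plain library-size scaling (adjusted p = 0.0985 and 0.168). The other complex I genes called higher in set 2 were accessory subunits: NDUFA12 and NDUFB5 at 0.60 and 0.57, and NDUFA1, NDUFA2, NDUFA3, NDUFA5, NDUFA11, NDUFB1, NDUFB2, NDUFB3, NDUFB4, NDUFB7, NDUFB8, NDUFB9, NDUFB11, NDUFC1, NDUFC2 and NDUFS6 between 0.10 for NDUFB4 and 0.43 for NDUFA3. Of these, NDUFC1 lost its call without set 2 replicate 1 or control replicate 1 (adjusted p = 0.104 and 0.101), and NDUFA11 without set 2 replicate 3 or control replicate 2 (adjusted p = 0.142 and 0.0907). NDUFB8 lost its call without set 2 replicate 2 or control replicate 3 (adjusted p = 0.0947 and 0.0688), and NDUFB4 without set 2 replicate 2 or 3 or any control library (adjusted p = 0.138, 0.07, 0.0769, 0.235 and 0.0535). NDUFS6 rose by 0.32, and by 0.19 without set 2 replicate 3. NDUFA6, NDUFA7, NDUFA9, NDUFA13 and NDUFB10 did not pass the test.

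Complex II, succinate dehydrogenase, has no mitochondrially encoded subunit. SDHC, a membrane anchor, rose in set 2 with 107, 114 and 108 CPM, against 85.5, 80.7 and 78.8 CPM in control (log2 fold change 0.34, SE 0.043, adjusted p = 9.3e-11). SDHB, the iron-sulfur subunit, was called lower (log2 fold change -0.14, SE 0.047, adjusted p = 0.00947) although its CPM ranges overlap, at 67.6, 63.1 and 62.2 in set 2 and 66.1, 67.7 and 66.3 in control, and the call was lost with upper-quartile or library-size scaling (adjusted p = 0.202 and 0.341). SDHA, the flavoprotein, and SDHD, the other anchor, did not pass the test (adjusted p = 0.0652 and 0.879).

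In complex III the rises in set 2 were led by UQCR10, a small subunit, and UQCRFS1, the Rieske iron-sulfur protein. UQCR10 had 44.5, 40.1 and 39.9 CPM in set 2, against 25.8, 23.5 and 22.1 CPM in control (log2 fold change 0.72, SE 0.07, adjusted p = 7.5e-15). UQCRFS1 had 182, 171 and 184 CPM in set 2, against 103, 106 and 102 CPM in control (log2 fold change 0.71, SE 0.036, adjusted p = 2.5e-28). The groups are far apart for both genes. UQCRH, the acidic hinge protein that helps cytochrome c to dock, went the other way. It had 110, 119 and 115 CPM in set 2, against 149, 144 and 146 CPM in control (log2 fold change -0.43, SE 0.035, adjusted p = 2.6e-18). The 2 core proteins UQCRC1 and UQCRC2 differed in direction: UQCRC1 fell (log2 fold change -0.28, SE 0.03, adjusted p = 1.4e-13) and UQCRC2 rose (log2 fold change 0.15, SE 0.035, adjusted p = 1.4e-04). UQCRB and UQCRQ, small subunits near the mitochondrially encoded cytochrome b, rose by 0.36 and 0.17 (adjusted p = 3.1e-13 and 2.0e-04), while UQCR11 and UQCRHL did not pass.

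In complex IV the largest rise in set 2 was in COX7A2L, which despite its name is known chiefly for joining complexes III and IV into supercomplexes. COX7A2L had 166, 176 and 177 CPM in set 2, against 104, 109 and 104 CPM in control (log2 fold change 0.63, SE 0.036, adjusted p = 1.6e-25). COX6C, COX6A1 and COX4I1 rose as well, by 0.55, 0.44 and 0.36 on the log2 scale (adjusted p = 6.9e-16, 3.0e-09 and 1.8e-18). COX5B, the zinc-binding subunit, was the 1 complex IV gene called lower, with 56.99, 68.8 and 68.4 CPM in set 2, against 76.9, 73.3 and 77.1 CPM in control (log2 fold change -0.31, SE 0.05, adjusted p = 9.1e-08). COX5A did not pass the test (adjusted p = 0.659). NDUFA4, once counted in complex I, rose by 0.34 (adjusted p = 4.0e-12). COX7C, COX6B1, COX8A, COX7A2 and COX7B rose by 0.28, 0.25, 0.20, 0.13 and 0.12, and the COX7B call was lost without set 2 replicate 1 or 2 or control replicate 1 or 3 (adjusted p = 0.0789, 0.091, 0.0757 and 0.163).

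In complex V the rises in set 2 took in all 4 peripheral stalk genes and 3 of the 5 genes of the catalytic head and central stalk. ATP5PB, the stalk's b subunit, had 203, 196 and 194 CPM in set 2, against 122, 126 and 121 CPM in control (log2 fold change 0.60, SE 0.033, adjusted p = 2.1e-26). ATP5F1E, the epsilon subunit of the rotor, had 175, 187 and 201 CPM in set 2, against 115, 113 and 116 CPM in control (log2 fold change 0.62, SE 0.038, adjusted p = 1.7e-24). Both genes were separate between the groups, ATP5F1E with 23.2% of its exonic bases under exons of other genes. The other stalk genes ATP5PF, ATP5PO and ATP5PD rose by 0.43, 0.37 and 0.30 (adjusted p = 1.8e-10, 9.4e-05 and 7.4e-11). The alpha and gamma subunits ATP5F1A and ATP5F1C rose by 0.33 and 0.38 (adjusted p = 1.2e-19 and 1.5e-13). The beta subunit ATP5F1B had 747, 784 and 759 CPM in set 2 and 733, 727 and 711 CPM in control without passing the threshold (adjusted p = 0.847), nor did the delta subunit ATP5F1D (adjusted p = 0.6). ATP5MC1, ATP5MC2 and ATP5MC3 encode the same mature c-ring protein. ATP5MC2 and ATP5MC3 rose by 0.18 and 0.27 (adjusted p = 2.4e-05 and 1.3e-10), and ATP5MC1 was not called (adjusted p = 0.162). ATP5IF1, the inhibitor of ATP hydrolysis, rose by 0.20 (adjusted p = 1.4e-04; 0.11 without set 2 replicate 3). Of the small membrane subunits, ATP5MK, ATP5ME, ATP5MG and ATP5MF rose by 0.58, 0.30, 0.20 and 0.20 (adjusted p = 2.2e-20, 0.0149, 0.0282 and 8.7e-05). The ATP5ME call was lost without set 2 replicate 3 or control replicate 1 or 3 (adjusted p = 0.114, 0.0505 and 0.0901). ATP5MG lost its call without set 2 replicate 2 or 3 or control replicate 3 (adjusted p = 0.34, 0.109 and 0.176), and stood at 0.32 without set 2 replicate 1.

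The set 1-labelled libraries showed no common direction against the same control libraries. Of 81 members tested, 25 were called higher and 21 lower, or 30.9% and 25.9%, beside 27.3% and 26.5% over all genes. The median log2 fold change was 0.01 over members and -0.0019 over all genes, and the member median changed sign with the scaling, to -0.02 with upper-quartile and -0.05 with plain library-size scaling. With plain library-size scaling 15 members were higher and 30 lower. The share of members called was thus near that of all genes, and the genes that moved were spread over the complexes: 9 higher and 12 lower in complex I, 3 and 1 in II, 2 and 1 in III, 6 and 1 in IV, and 5 and 6 in V.

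The largest fall in the set 1-labelled libraries among members at 10 CPM or more was in ATP5MC1, with 42.2, 41.9 and 39.5 CPM, against 62.6, 67.1 and 64.9 CPM in control (log2 fold change -0.60, SE 0.051, adjusted p = 7.8e-17). NDUFV1, a core subunit of complex I, fell too, by 0.35 on the log2 scale (adjusted p = 4.2e-12). NDUFB10, UQCRC1 and NDUFA11 were also among the 6 largest falls (log2 fold change -0.35, -0.34 and -0.34, adjusted p = 8.1e-09, 3.3e-16 and 0.0142). The NDUFA11 call was lost without replicate 1 or 3 of the set or control replicate 3 (adjusted p = 0.0744, 0.139 and 0.116). Among members at 10 CPM or more COX6C had the largest rise, with 60.7, 66.3 and 64.7 CPM in the set 1-labelled libraries, against 49.97, 49.6 and 48.03 CPM in control (log2 fold change 0.43, SE 0.051, adjusted p = 2.3e-11). UQCRH rose in these libraries, with 186, 187 and 188 CPM, against 149, 144 and 146 CPM in control (log2 fold change 0.41, SE 0.033, adjusted p = 1.2e-17). The next largest rises at that level were in NDUFC1, ATP5MJ, NDUFA4 and NDUFS4, at 0.41, 0.37, 0.34 and 0.29 on the log2 scale (adjusted p = 6.7e-07, 7.7e-08, 7.0e-12 and 1.3e-05).

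Tested directly, set 2 was higher than the set 1-labelled libraries for 52 of 81 members and lower for 12, or 64.2% and 14.8%, beside 35.6% and 33.9% over all genes. The median log2 fold change was 0.23 over members and 0.03 over all genes. Among members at 10 CPM or more NDUFB6 led the rises, with 42.8, 41.9 and 46.99 CPM in set 2, against 21.03, 20.98 and 24.9 CPM in the set 1-labelled libraries (log2 fold change 0.84, SE 0.072, adjusted p = 4.4e-17). NDUFV3, UQCRFS1, UQCR10, NDUFA11 and COX7A2L followed, with log2 fold changes of 0.77, 0.74, 0.71, 0.69 and 0.68 (adjusted p = 5.7e-23, 3.0e-29, 1.6e-14, 4.8e-07 and 4.0e-27). UQCRH was the largest fall, with 110, 119 and 115 CPM in set 2, against 186, 187 and 188 CPM in the set 1-labelled libraries (log2 fold change -0.84, SE 0.034, adjusted p = 3.9e-34). Its nearly identical copy UQCRHL, at 1.79, 1.52 and 2.18 CPM in set 2 and 3.07, 2.85 and 2.79 CPM in the set 1-labelled libraries, had the same sign (log2 fold change -0.80, SE 0.24, adjusted p = 0.00261), and reads that fit both genes were not counted. NDUFA10, ATP5MJ, COX5B, NDUFS8 and SDHD were the next largest falls, from -0.51 to -0.27 on the log2 scale (adjusted p = 6.5e-16 for NDUFA10 and 7.4e-04 for SDHD), the SDHD call being lost with library-size scaling (adjusted p = 0.0951).

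In Huh7 more respiratory chain genes fell than rose with shTHBD, and 39 of the 78 members tested were not called. Of the 78, 7 rose and 32 fell, or 8.97% and 41.0%, beside 25.9% and 27.3% over all 17474 genes tested. The median log2 fold change was -0.18 over members and 0.002 over all genes. Of the 12 hepatocyte markers 11 fell and 1 rose in the same comparison, and their part in the members' result was not tested. Upper-quartile scaling gave 11 higher and 26 lower. Without shTHBD replicate 3, the library that stood apart, 10 members were higher and 28 lower, with a median of -0.15. Over the fits without each single library, 5 to 10 members were higher and 24 to 33 lower, with medians from -0.20 to -0.12. Complex I had 3 higher and 13 lower of 35 genes tested, complex II 0 and 2 of 4, complex III 1 and 5 of 9, complex IV 1 and 4 of 12, and complex V 2 and 8 of 18.

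The largest falls in Huh7 were those of UQCRH, COX5B and ATP5MG, each more than 2-fold. UQCRH had 38.6, 51.04 and 34.03 CPM in shTHBD, against 73.2, 92.8 and 92.5 CPM in control (log2 fold change -1.09, SE 0.098, adjusted p = 2.4e-11). COX5B had 44.5, 56.9 and 37.4 CPM in shTHBD, against 84.9, 94.7 and 106 CPM in control (log2 fold change -1.07, SE 0.094, adjusted p = 1.6e-11). ATP5MG, the g subunit near the dimer interface of ATP synthase, had 15.2, 16.05 and 13.3 CPM in shTHBD, against 25.5, 33.6 and 31.4 CPM in control (log2 fold change -1.05, SE 0.11, adjusted p = 9.1e-10). The groups are separate for all 3 genes, and replicate 3 was the lowest shTHBD library each time. NDUFA10 had 16.6, 12.5 and 12.7 CPM in shTHBD, against 27.5, 26.9 and 26.3 CPM in control (log2 fold change -0.98, SE 0.11, adjusted p = 8.0e-09). UQCR11, a small complex III subunit, had 29.2, 31.1 and 25.4 CPM in shTHBD, against 47.4, 57.2 and 54.7 CPM in control (log2 fold change -0.92, SE 0.089, adjusted p = 1.2e-10). NDUFA1, a small membrane subunit needed for complex I assembly, had 15.9, 18.5 and 10.2 CPM in shTHBD, against 18.1, 26.2 and 29.5 CPM in control (log2 fold change -0.76, SE 0.15, adjusted p = 6.5e-05). The groups are separate for NDUFA10 and UQCR11 and overlap for NDUFA1, where shTHBD replicate 2 exceeded control replicate 1.

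Of the core subunits of complex I in Huh7, NDUFV1, the subunit that binds NADH and FMN, fell, with 145, 145 and 116 CPM in shTHBD, against 197, 214 and 232 CPM in control (log2 fold change -0.69, SE 0.068, adjusted p = 1.8e-10). NDUFS8 fell with 107, 107 and 102 CPM in shTHBD, against 163, 157 and 178 CPM in control (log2 fold change -0.68, SE 0.062, adjusted p = 3.1e-11), and NDUFS7 fell by 0.53 (adjusted p = 3.7e-05). NDUFS1 and NDUFS3 did not pass the test (adjusted p = 0.944 and 0.538). In complex II, SDHB fell with 22.4, 21.6 and 19.9 CPM in shTHBD, against 26.2, 33.2 and 33.5 CPM in control (log2 fold change -0.57, SE 0.10, adjusted p = 1.6e-05). SDHD was called lower (-0.34, adjusted p = 0.0143), a call lost without shTHBD replicate 1 or 3 or control replicate 2 (adjusted p = 0.0533, 0.0976 and 0.0846), while without shTHBD replicate 2 the value was -0.52. In complex V, ATP5MC1 and ATP5MC3 of the c-ring fell (-0.69 and -0.30, adjusted p = 2.4e-06 and 3.3e-04), ATP5MC2 did not pass (adjusted p = 0.265), and the inhibitor ATP5IF1 fell by 0.57 (adjusted p = 7.6e-05). ATP5F1B again did not pass (adjusted p = 0.809). ATP5MJ and ATP5ME, small membrane subunits, fell by 0.73 and 0.68 (adjusted p = 8.8e-08 and 0.00557), the ATP5ME call being lost without control replicate 2 (adjusted p = 0.0543). In complex IV, COX8A fell by 0.61 (adjusted p = 3.3e-05), and COX6A1 was called lower (-0.41, adjusted p = 0.01), a call lost without shTHBD replicate 3 or control replicate 2 or 3 (adjusted p = 0.0598, 0.106 and 0.0923). Further accessory genes of complex I that fell were NDUFC1 and NDUFB3, by 0.62 and 0.54 (adjusted p = 6.0e-05 and 3.2e-04).

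COX7A2L was the largest of the 7 rises in Huh7, with 109, 114 and 105 CPM in shTHBD, against 66.4, 68.6 and 67.4 CPM in control (log2 fold change 0.67, SE 0.065, adjusted p = 1.5e-10). All shTHBD libraries were above all control libraries. NDUFA5 had 77.7, 65.1 and 68.8 CPM in shTHBD, against 51.5, 53.1 and 52.8 CPM in control (log2 fold change 0.40, SE 0.076, adjusted p = 4.2e-05). NDUFA3, NDUFS5, UQCRC2, ATP5F1A and ATP5PB rose by 0.36, 0.28, 0.26, 0.20 and 0.16 (adjusted p = 0.00491, 0.00121, 0.00152, 0.00208 and 0.0397), the NDUFA3 call being lost without shTHBD replicate 2 (adjusted p = 0.0669) and the ATP5PB call without shTHBD replicate 1 or 2 or any control library (adjusted p = 0.0967, 0.138, 0.12, 0.101 and 0.0817).

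**Figure D3:**
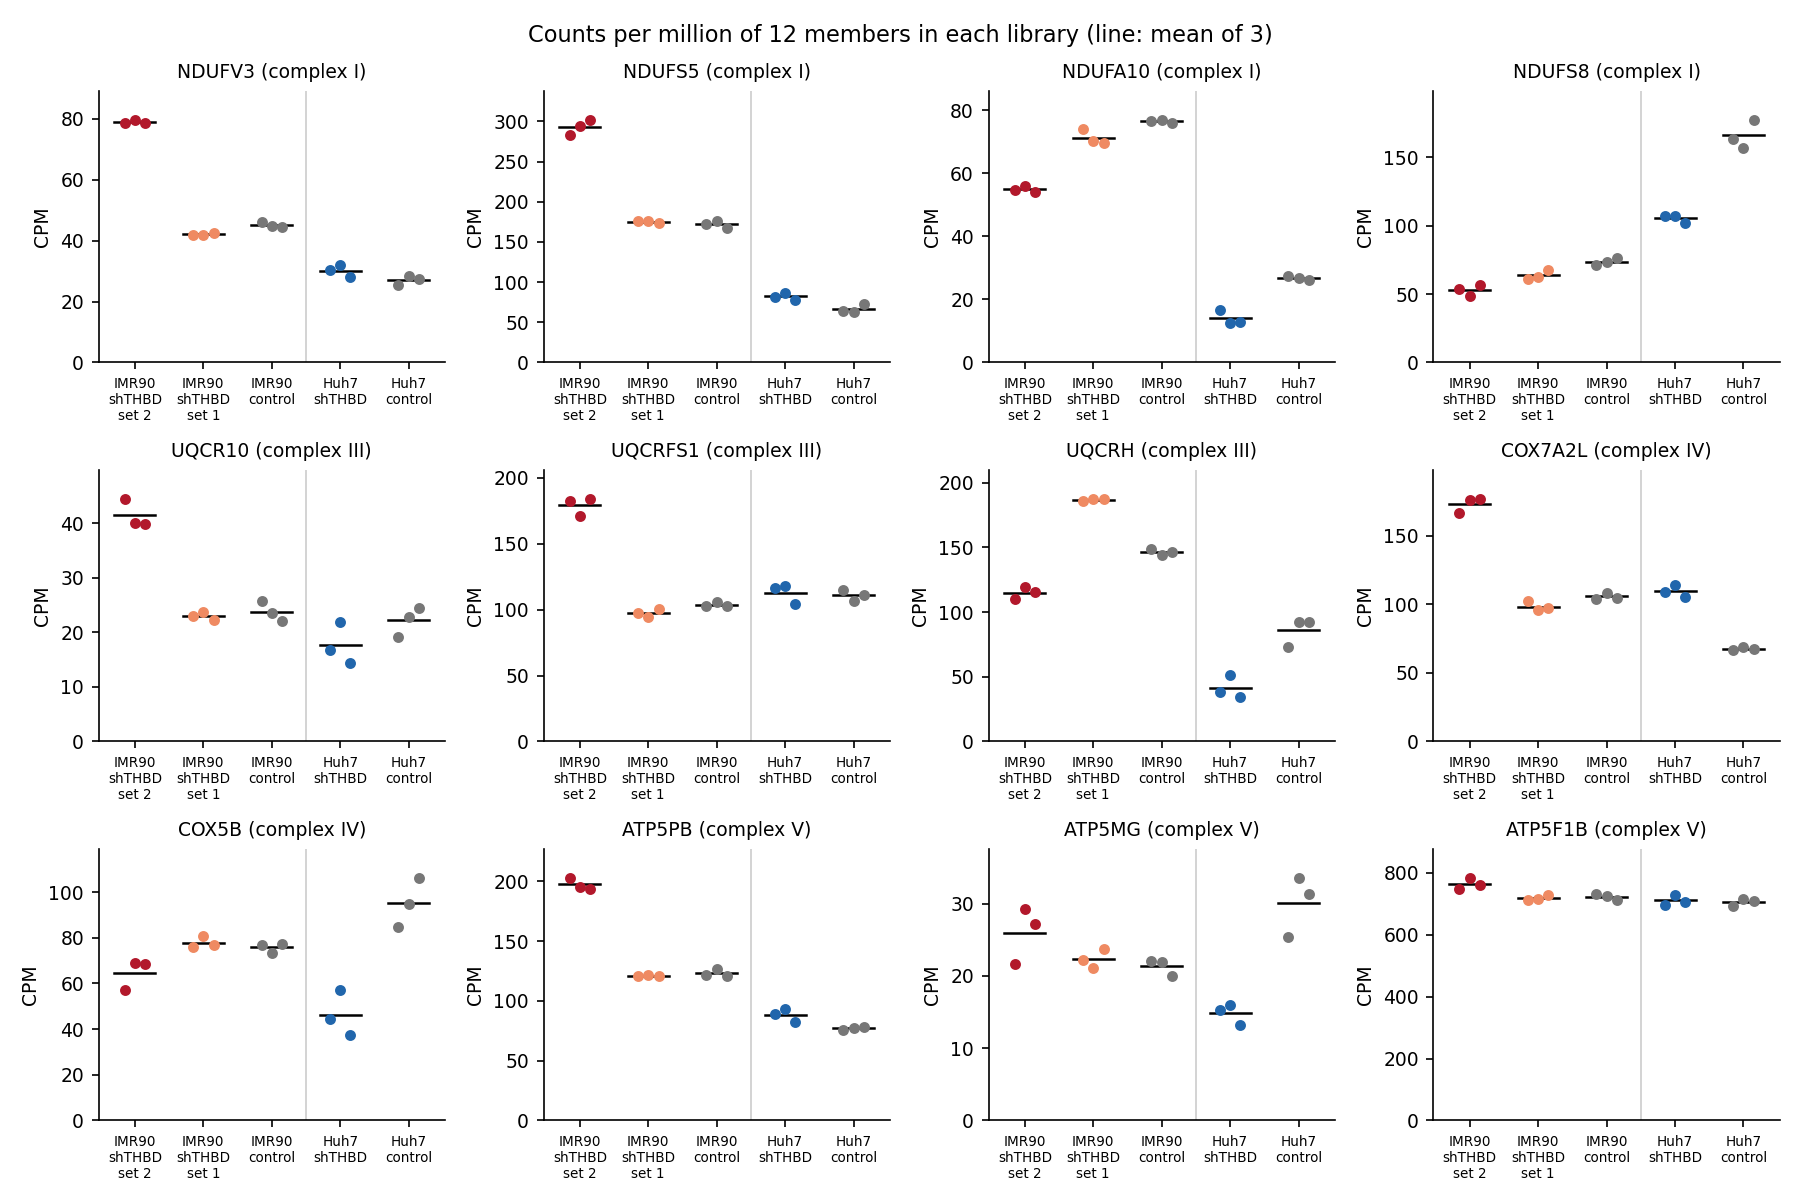
CPM (linear axis from 0) of 12 members in each of the 15 libraries, with the mean of 3 as a line. COX7A2L is above control in set 2 and in Huh7 shTHBD, UQCRH, COX5B, NDUFA10 and NDUFS8 are below control in both, and UQCRFS1 and NDUFV3 are higher in set 2 while in Huh7 neither passed the test.

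Set 2 and the Huh7 comparison share no library, so their calls can be put side by side. Of the members, 7 were called higher in both (NDUFA3, NDUFA5, NDUFS5, UQCRC2, COX7A2L, ATP5F1A and ATP5PB), 6 were lower in both (NDUFA10, NDUFS8, SDHB, UQCRC1, UQCRH and COX5B), 19 were higher in set 2 and lower in Huh7, and none was lower in set 2 and higher in Huh7. As shares of the 78 members tested in both, these are 8.97%, 7.69%, 24.4% and 0%. Over all 12782 genes tested in both, 16.5% were higher in both, 18.5% lower in both, 5.14% higher in set 2 and lower in Huh7, and 5.82% lower in set 2 and higher in Huh7. ATP5PB is among the 7 although its Huh7 call was lost when most single libraries were left out. Several of the 19 calls also depended on single libraries. NDUFA2, NDUFB6, NDUFC2, UQCR10, UQCRQ, COX6A1, COX7A2, ATP5ME and ATP5MF lost their Huh7 call without at least 1 of the libraries. ATP5ME, ATP5MG, NDUFC1 and NDUFV1 lost their set 2 call in the same way. The 7 are all of the members called higher in Huh7, and 7 of the 54 called higher in set 2. The difference itself was tested in a joint fit as the shTHBD effect in Huh7 minus that in set 2. Of 81 members, 51 had a lower effect in Huh7 and 1 a higher one, or 63.0% and 1.23%, beside 21.2% and 22.8% over all 16861 genes tested, and the median difference on the log2 scale was -0.42 over members and -0.0007 over all genes. Without Huh7 shTHBD replicate 3 the counts were 48 lower and 2 higher, with a median of -0.39. Lower effects made up 20 of 36 genes in complex I, 3 of 4 in II, 6 of 9 in III, 9 of 14 in IV and 13 of 18 in V.

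The largest difference was in ATP5MG, at -1.22 (SE 0.15, adjusted p = 6.6e-09). Its rise in set 2, with 21.6, 29.3 and 27.2 CPM against 22.1, 22.00 and 20.04 CPM in control, was small, with set 2 replicate 1 inside the control range. UQCR10 differed by -1.04 (SE 0.15, adjusted p = 1.4e-07). It had 16.8, 21.95 and 14.3 CPM in Huh7 shTHBD, against 19.2, 22.9 and 24.5 CPM in Huh7 control, where the libraries overlap. Its fall in Huh7 (-0.35, adjusted p = 0.0162) was lost without shTHBD replicate 1 or 3 or control replicate 2 or 3 (adjusted p = 0.0738, 0.0723, 0.0646 and 0.0951). ATP5ME, NDUFA1, NDUFB6 and NDUFB3 differed by -0.94, -0.94, -0.92 and -0.89 (adjusted p = 0.00105, 1.3e-05, 7.4e-08 and 2.0e-06). ATP5ME had only 5.02, 7.37 and 3.34 CPM in Huh7 shTHBD and 6.61, 9.44 and 8.74 CPM in Huh7 control. Exons of other genes, mainly MYL5, cover 61.3% of its exonic bases. UQCRFS1 and NDUFV3 differed by -0.68 and -0.57 (adjusted p = 1.2e-10 and 2.0e-06). For COX7A2L, whose rise was 0.67 in Huh7 and 0.63 in set 2, the difference was 0.07 (SE 0.067, adjusted p = 0.44). Of the 6 genes lower in both lines, UQCRH, COX5B, SDHB and NDUFA10 fell further in Huh7, by 0.63, 0.73, 0.41 and 0.39 on the log2 scale (adjusted p = 6.1e-06, 2.8e-06, 0.00109 and 0.00251), while the differences of NDUFS8 and UQCRC1 did not pass (-0.10 and -0.07, adjusted p = 0.362 and 0.384).

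**Figure D4:**
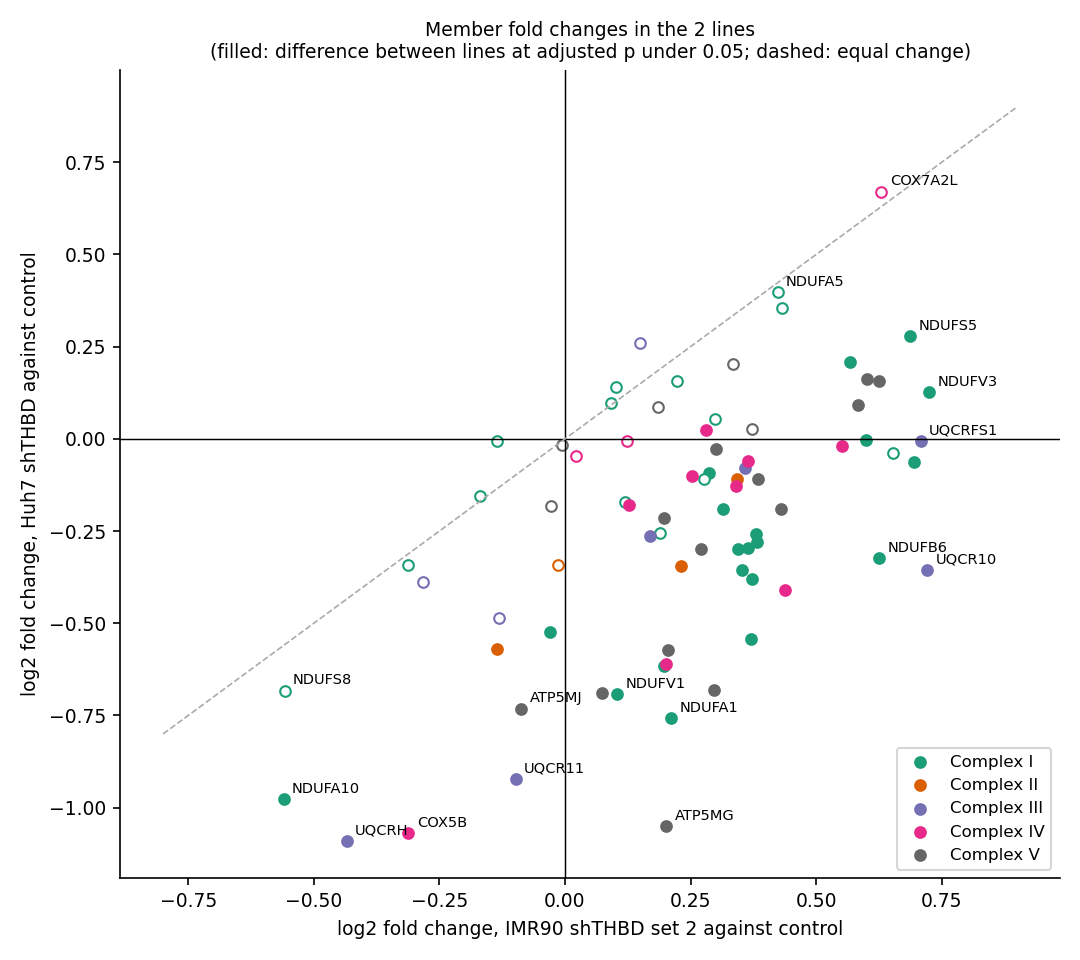
Log2 fold change with shTHBD in Huh7 (y axis) and in IMR90 set 2 (x axis) for members tested in both (3 libraries a group), coloured by complex. Most points lie below the dashed line of equal change, filled points differ between the lines at an adjusted p under 0.05, and COX7A2L, NDUFA5, NDUFA3 and NDUFS8 lie near the line.

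Members known as tissue variants, copies or a read-through gene were at or near 0. COX4I2, COX6A2 and ATP5MF-PTCD1 had 0 counts in all 9 IMR90 libraries, and COX6A2 had 0 in the 6 Huh7 libraries too. A count of 0 allows up to 3 counts in a library. ATP5MGL, a copy of ATP5MG, had 4 counts in 1 of the set 1-labelled libraries and 0 in all others. COX7B2 reached at most 0.555 CPM in any library and COX8C at most 0.415 CPM. COX4I2 is known from lung, COX6A2 from heart and muscle, COX7B2 and COX8C from testis, and ATP5MF-PTCD1 is a read-through gene with 93.4% of its exonic bases under exons of PTCD1 and other genes, where reads were not counted. These 6 members were tested in neither line, and NDUFV2, COX6B2 and COX7A1 were not tested in Huh7. COX7A1, the heart and muscle form, had 2.21, 0.941 and 2.18 CPM in set 2, 0.548, 0.949 and 1.08 CPM in the set 1-labelled libraries and 1.78, 1.34 and 1.77 CPM in control, and it was called lower in the set 1-labelled libraries (-0.86, adjusted p = 0.029), a call lost without replicate 1 of the set or control replicate 1 or 3 (adjusted p = 0.152, 0.0795 and 0.0833). Its general counterpart COX7A2 had 108, 103 and 110 CPM in set 2, 80.9, 85.7 and 90.9 CPM in the set 1-labelled libraries and 94.9, 90.7 and 91.9 CPM in control. COX6B2 was called higher in the set 1-labelled libraries (log2 fold change 1.57, SE 0.52, adjusted p = 0.00831), but at 0.603, 0.699 and 1.17 CPM there and 0.314, 0.321 and 0.232 CPM in control, and the call was lost without replicate 3 of the set (adjusted p = 0.0975). NDUFA4L2, the hypoxia-responsive relative of NDUFA4 outside the member rule, had 0.211, 0.679 and 0.599 CPM in set 2 and 2.25, 0.963 and 1.49 CPM in control (log2 fold change -1.73, SE 0.40, adjusted p = 1.3e-04).

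Several members known to be expressed in most cells were also near 0. NDUFV2, a core subunit, had 0.632, 0.47 and 0.708 CPM in set 2 and 0.471, 0.589 and 0.418 CPM in IMR90 control, and NDUFA7 had 0.579, 0.784 and 0.926 CPM in set 2 and 0.419, 0.482 and 0.465 CPM in control. Reads that fell on exons of more than 1 gene or aligned to more than 1 place were not counted in the IMR90 table. Of the 87 members, 18 had at least 20% of their exonic bases under exons of other genes, and 47 have a numbered pseudogene of the same name in that table. The levels of such genes may be too low, and the part of these overlaps in the fold changes was not tested.

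The promoters of members share sequence words that the choice by symbol did not use. RefSeq promoters (250 bases before to 50 after the start, GRCh38.p14) were at hand for 69 of the 87 members and were searched on both strands for GCGCATGC (the core of the nuclear respiratory factor NRF1 site, whose reverse complement overlaps it), CCGGAAG (ETS factors such as GABPA), AAGATGGC (YY1) and GGGCGG (SP1). The NRF1 word was in 18.8% of member promoters and 3.27% of all 27305 promoters, the ETS word in 29.0% and 10.7%, the YY1 word in 15.9% and 3.03%, and the SP1 word in 60.9% and 44.6%. The ETS word was in 13 of the 28 promoters of members lower in Huh7 (46.4%), in 0 of 6 of those higher in Huh7, in 4 of 8 of those lower in set 2 (50%) and in 13 of 44 of those higher in set 2 (29.5%). Of the 6 largest falls in Huh7, UQCRH, COX5B, ATP5MG, UQCR11 and NDUFA1 hold the ETS word, and NDUFA10 does not. The NRF1 word was in 6 of 28 promoters of members lower in Huh7 and 0 of 6 of those higher. The YY1 word was in 3 of 28 and 2 of 6, and the SP1 word in 17 of 28 and 3 of 6. For members lower and higher in set 2, the NRF1 word was in 3 of 8 and 7 of 44. There the YY1 word was in 2 of 8 and 5 of 44, and the SP1 word in 6 of 8 and 26 of 44. A link between any word and the calls was not tested. These are matches of letters, described without a test.

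Promoters are given for COX5B and SDHB, called lower in both lines, for ATP5MG and UQCR10, both called higher in set 2 and lower in Huh7, the second with none of the 4 words, and for COX7A2L, which rose in both lines. They were picked after the values were seen. Capitals mark the words searched, in either direction, and adjoining words run together. COX5B lies at chr2:97645812-97646111, plus strand, SDHB at chr1:17053983-17054282, minus strand, ATP5MG at chr11:118401356-118401655, plus strand, UQCR10 at chr22:29767119-29767418, plus strand and COX7A2L at chr2:42361168-42361467, minus strand, each printed 5′ to 3′ on the gene's strand.
COX5B: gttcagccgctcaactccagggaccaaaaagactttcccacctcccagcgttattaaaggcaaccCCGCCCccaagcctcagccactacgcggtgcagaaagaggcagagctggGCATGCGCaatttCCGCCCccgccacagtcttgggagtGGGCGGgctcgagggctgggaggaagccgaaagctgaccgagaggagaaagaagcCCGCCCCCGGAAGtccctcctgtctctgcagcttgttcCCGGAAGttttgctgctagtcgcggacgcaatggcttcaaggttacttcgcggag
SDHB: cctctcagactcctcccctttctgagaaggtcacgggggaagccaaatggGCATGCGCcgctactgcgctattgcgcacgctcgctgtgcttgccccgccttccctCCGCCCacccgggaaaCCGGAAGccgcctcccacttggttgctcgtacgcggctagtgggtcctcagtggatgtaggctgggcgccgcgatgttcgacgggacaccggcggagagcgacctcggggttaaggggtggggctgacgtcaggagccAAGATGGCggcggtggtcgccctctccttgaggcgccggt
ATP5MG: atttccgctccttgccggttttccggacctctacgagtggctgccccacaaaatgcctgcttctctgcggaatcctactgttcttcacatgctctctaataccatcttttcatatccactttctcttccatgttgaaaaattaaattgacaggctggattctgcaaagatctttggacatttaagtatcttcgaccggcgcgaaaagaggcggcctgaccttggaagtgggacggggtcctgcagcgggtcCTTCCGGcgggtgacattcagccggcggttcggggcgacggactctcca
UQCR10: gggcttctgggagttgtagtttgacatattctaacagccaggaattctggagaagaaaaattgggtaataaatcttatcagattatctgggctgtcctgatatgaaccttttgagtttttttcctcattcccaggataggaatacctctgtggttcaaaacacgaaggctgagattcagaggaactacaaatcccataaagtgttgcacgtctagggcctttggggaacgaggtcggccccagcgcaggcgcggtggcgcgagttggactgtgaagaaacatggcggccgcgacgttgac
COX7A2L: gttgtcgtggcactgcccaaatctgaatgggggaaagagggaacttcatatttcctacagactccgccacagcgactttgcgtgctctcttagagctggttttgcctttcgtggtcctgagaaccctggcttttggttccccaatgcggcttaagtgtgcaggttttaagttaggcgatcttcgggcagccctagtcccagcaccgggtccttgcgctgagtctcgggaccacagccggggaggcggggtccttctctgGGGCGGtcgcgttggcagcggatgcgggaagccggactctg
COX5B holds NRF1, ETS and SP1 words and SDHB holds all 4. ATP5MG holds a single ETS word that begins 1 base after the first transcribed base, and COX7A2L holds a single SP1 word.

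Genes that work with the members were read from the same fits. Their counts stand beside shares over all genes of 33.2% higher and 34.1% lower in set 2, 27.3% and 26.5% in the set 1-labelled libraries, and 25.9% and 27.3% in Huh7. Of the 13 mitochondrially encoded subunits, 10 were called higher (76.9%) and 2 lower (15.4%) in set 2, and 10 higher and 0 lower in the set 1-labelled libraries. In Huh7, 2 were higher (15.4%) and 4 lower (30.8%). MT-CO3, a core subunit of complex IV, had 3698, 3724 and 3502 CPM in set 2, against 2450, 2544 and 2504 CPM in IMR90 control (log2 fold change 0.46, SE 0.02, adjusted p = 4.7e-32). MT-ND1 had 3510.3, 3359 and 4105 CPM in Huh7 shTHBD, against 2711, 2450.5 and 2329 CPM in Huh7 control (log2 fold change 0.52, SE 0.066, adjusted p = 3.2e-08). Huh7 shTHBD replicate 3 had the highest share of reads from mitochondrial genes, 9.94%, against 7.83% and 8.04% in the other shTHBD libraries and 7.26% to 8.35% in controls, and its part in the Huh7 results beyond the counts given without it was not tested.

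The list of assembly factors also held the complex I subunit NDUFAB1 and CYCS, the gene for cytochrome c. Of the 59 genes of this list tested, 20 were higher and 12 lower in set 2 (33.9% and 20.3%), 9 and 22 in the set 1-labelled libraries (15.3% and 37.3%), and 8 and 23 in Huh7 (13.6% and 39.0%). The share higher in set 2 is near that of all genes. UQCC1, an assembly factor for complex III, had 80.2, 83.2 and 80.6 CPM in set 2, against 35.4, 32.1 and 36.4 CPM in control (log2 fold change 1.15, SE 0.054, adjusted p = 2.9e-30). ECSIT, an assembly factor for complex I, fell in both lines, with 6.27, 5.64 and 7.30 CPM in set 2 and 16.3, 14.6 and 15.4 CPM in IMR90 control (log2 fold change -1.35, SE 0.11, adjusted p = 9.0e-18), and 12.4, 15.6 and 13.2 CPM in Huh7 shTHBD and 24.1, 24.9 and 26.1 CPM in Huh7 control (log2 fold change -0.89, SE 0.11, adjusted p = 3.1e-08). Mitochondrial ribosomal protein genes, whose products translate the mitochondrially encoded subunits, had 35 of 77 higher and 20 lower in set 2 (45.5% and 26%), 12 and 18 in the set 1-labelled libraries (15.6% and 23.4%), and 8 and 30 in Huh7 (10.4% and 39.0%). Cytosolic ribosomal protein genes had 51 of 82 higher and 17 lower in set 2 (62.2% and 20.7%), 59 and 8 in the set 1-labelled libraries (72.0% and 9.76%), and 31 of 83 higher and 21 lower in Huh7 (37.3% and 25.3%).

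Of the regulators of mitochondrial biogenesis, 7 of 22 tested were higher and 11 lower in set 2 (31.8% and 50%), 7 and 4 in the set 1-labelled libraries (31.8% and 18.2%), and 5 of 23 higher and 4 lower in Huh7 (21.7% and 17.4%). The shares called higher are near those of all genes. Those called higher in Huh7 included ESRRG and GABPB1. ESRRG had 49.4, 50.6 and 58.0 CPM in Huh7 shTHBD, against 31.8, 33.6 and 27.0 CPM in Huh7 control. GABPB1 had 32.7, 29.7 and 37.5 CPM in Huh7 shTHBD, against 20.9, 22.7 and 22.6 CPM in Huh7 control. ESRRA, an orphan nuclear receptor that activates respiratory genes, fell in both lines. It had 34.5, 30.99 and 33.05 CPM in set 2 and 57.8, 63.6 and 63.1 CPM in IMR90 control (log2 fold change -0.99, SE 0.058, adjusted p = 2.7e-25), and 23.4, 19.97 and 17.4 CPM in Huh7 shTHBD and 26.8, 28.5 and 31.5 CPM in Huh7 control (log2 fold change -0.54, SE 0.11, adjusted p = 5.6e-05). TFAM, which packages and transcribes mitochondrial DNA, rose in set 2 (0.38, adjusted p = 1.2e-06) and in the set 1-labelled libraries (0.76, adjusted p = 2.2e-16), and did not pass the test in Huh7 (adjusted p = 0.856). GABPA, an ETS factor, fell in set 2 (-0.44, adjusted p = 6.7e-10) and did not pass in Huh7 (adjusted p = 0.992). In the set 1-labelled libraries GABPA was called higher, with 57.1, 51.9 and 53.3 CPM, against 43.1, 44.6 and 45.5 CPM in IMR90 control. NRF1 passed in neither set 2 nor Huh7 (adjusted p = 0.723 and 0.976). Exons of other genes, mainly GABPA, cover 37.3% of the exonic bases of ATP5PF in the IMR90 table.

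Gene length moved with the difference between the lines. Over all genes, the median difference (Huh7 effect minus set 2 effect, log2) was -0.15 for genes under 1000 exonic bases, -0.20 from 1000 to under 2000, -0.13 from 2000 to under 4000 and 0.07 at 4000 or more. For members the medians in the same classes were -0.68, -0.63, -0.41 and -0.39, over 11, 17, 31 and 22 genes. In set 2 the member medians by class were 0.30, 0.28, 0.20 and 0.31, against 0.05, 0.06, 0.07 and -0.03 over all genes. In Huh7 they were -0.36, -0.17, -0.18 and -0.08, against 0.05, -0.07, -0.07 and 0.03 over all genes. The Huh7 classes used the exon lengths of the Huh7 table and held 9, 19, 29 and 21 members, while the others used IMR90 lengths. The member median was thus on the same side of the median of all genes in each of the 4 length classes.

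Markers of other cells were read in every group. Leukocyte markers (9 genes) summed to 1.41 to 2.01 CPM in set 2, 11.98 to 13.4 CPM in the set 1-labelled libraries and 4.09 to 4.87 CPM in IMR90 control, with CD3E at 0 throughout IMR90, and to 29.7 to 32.8 CPM in Huh7 shTHBD and 34.0 to 38.4 CPM in Huh7 control. Endothelial markers (6 genes) summed to 104 to 112 CPM in set 2, 345 to 348 CPM in the set 1-labelled libraries and 166 to 174 CPM in IMR90 control, nearly all of it TIE1, with CDH5 at 0 in control, and to 9.39 to 10.7 CPM in Huh7 shTHBD and 14.1 to 15.8 CPM in Huh7 control, with TEK at 0 in shTHBD. Epithelial and cholangiocyte markers (5 genes) summed to 814 to 825 CPM in Huh7 shTHBD and 1159 to 1253 CPM in Huh7 control, and to 26.4 to 32.7 CPM in set 2, 46.4 to 49.0 CPM in the set 1-labelled libraries and 60.8 to 65.3 CPM in IMR90 control. Muscle markers (9 genes) summed to under 4 CPM in every library, with TNNT3 at 0 in all groups. Hepatocyte markers summed to 11.7 to 13.2 CPM in set 2, 132 to 142 CPM in the set 1-labelled libraries (almost all SERPINA1) and 15.9 to 17.9 CPM in IMR90 control, with APOB, TTR, FGB, FGA and AHSG at 0 throughout IMR90, and fibroblast markers to 1130 to 1187 CPM in Huh7 shTHBD and 790 to 821 CPM in Huh7 control, THY1 being at 0 in shTHBD. The part of these shifts in the members' results was not tested.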

How the data were processed

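RNA-seq was analysed in 15 libraries of senescent human cells, 9 from IMR90 and 6 from Huh7. Both deposited tables hold raw read counts per gene, which the authors made with fastp, STAR and featureCounts on GRCh38, per the submitters' processing notes. Per the file headers, the IMR90 table came from featureCounts 2.0.1 with GENCODE 38 and without strand, leaving out reads that aligned to several places or lay on several genes. The annotation of the Huh7 table is not given in the sources used here. Exon length, listed as another column of the deposited tables, was used for RPKM and for the length classes. The classes used Huh7 lengths for Huh7 shTHBD against control and IMR90 lengths otherwise. Older ATP5 symbols were matched through RefSeq names.

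Counts were scaled with TMM and filtered with filterByExpr, and edgeR 4.0.16 (R 4.3.3, limma 3.58.1) fitted the quasi-likelihood test over all genes with Benjamini-Hochberg adjustment, called at an adjusted p under 0.05. The IMR90 groups shared 1 fit, Huh7 had its own, and the difference between lines came from a joint fit of shared genes. SE is the fold change divided by the square root of F. In counts simulated on 15411 genes for set 2 against control, 58% of planted 1.25-fold and 92% of planted 2-fold changes were recovered, and for Huh7, on 17474 genes, 24% and 86%. Each simulation changed 200 genes, while 10372 genes were called in set 2 and 9280 in Huh7. The recovery in the data may therefore differ. Alternatives were DESeq2 1.42.0 median-ratio scaling and Wald test, upper-quartile scaling, library size only, other filters, the 2 groups alone, leaving out mitochondrially encoded genes, a block for the replicate number, and fits without each single library. CPM, RPKM and fold changes are limited by counting error and by the 3 libraries a group.

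Same-numbered libraries did not deviate together (correlations -0.026 to 0.022 in IMR90 and -0.052 to -0.016 in Huh7), so numbers were not used as pairs. Named members were the 6 largest called rises and falls with a mean of 10 CPM or more in a group of each comparison, plus core subunits and variant or duplicated subunits, and the further members named were chosen after their values were seen. Results that rest on some single genes are not reported here, and those genes are not drawn in the figures, while counts and sums over members include them. The members and lists were chosen with earlier results of these data known. Promoter sequences are from RefSeq (GRCh38.p14).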

Additional observations from a re-analysis of the deposited data

Results flagged for a closer look

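The effect of shTHBD differed between the lines (Huh7 effect minus IMR90 set 2 effect, log2 scale, edgeR quasi-likelihood test of the difference) for these members among the largest. ATP5MG differed by -1.22, UQCR10 by -1.04 and ATP5ME by -0.94. NDUFA1 differed by -0.94, NDUFB6 by -0.92 and NDUFB3 by -0.89. Cell line, senescence inducer, hairpin label and count table change together between these effects and cannot be told apart.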

How the results depend on the processing

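With plain library-size and upper-quartile scaling the median of all genes stood at 0.17 and 0.13 in set 2 against the set 1-labelled libraries (log2; 0.03 with TMM), and changes are to be read relative to it. Median log2 fold changes of members were 0.34 with upper-quartile and 0.35 with library-size scaling in set 2 against control, 0.33 and 0.37 in set 2 against the set 1-labelled libraries, -0.46 and -0.50 for the difference between the lines, and -0.022 and -0.045 in the set 1-labelled libraries against control, where the sign changed. Leaving out single libraries gave -0.0051 to 0.036 for the set 1-labelled libraries against control (negative without replicate 2 of the set) and -0.48 to -0.36 for the difference between the lines. Library-size scaling gave 15 members higher in the set 1-labelled libraries and 7 lower in set 2 against that set, and upper-quartile scaling 11 higher in Huh7. The count of members with a higher effect in Huh7 was 0 with both scalings and 0 to 2 without single libraries. In set 2 against the set 1-labelled libraries, ATP5F1B turned to 0.047 with upper-quartile and 0.087 with library-size scaling, and ATP5F1D to 0.028 with library-size scaling. The causes were not tested.

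With the replicate block, 54 members were higher and 9 lower in set 2, 25 and 21 in the set 1-labelled libraries, 52 and 12 in set 2 against that set, and 6 and 29 in Huh7, while 1 had a higher and 50 a lower effect in Huh7. The numbers pair no samples by the labels or by their deviations. Genes under about 1 CPM, and those sharing exons or near-identical copies, are limited by what the counting left out.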
